A study of Mus musculus with 8 samples.

Results

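The Wnt ligands described here are the 10 secreted signalling proteins Wnt1, Wnt3, Wnt3a, Wnt4, Wnt5a, Wnt5b, Wnt6, Wnt7b, Wnt8a and Wnt11, taken by their gene symbols from the 26608 symbols in the count tables. The tables list 19 symbols of the Wnt ligand family in all. All tissue came from FVB mouse embryos of diabetic dams at embryonic day 8.5, so no group from non-diabetic pregnancies enters these comparisons. The 4 open neural tube libraries hold normally shaped tissue cut by laser from sections in front of closure site 1, the point of first fusion of the folds. The 4 protrusion libraries hold outgrowths cut from the open neural plate, of which protrusion 1 is labelled separated and protrusions 2, 3 and 4 attached. The axial level of the protrusions is not stated in the labels, so axial position and protrusion cannot be told apart, and whether each library is a different embryo is not stated. The comparison asks which transcripts differ between protrusions and open neural plate.

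Wnt proteins are lipid-modified glycoproteins that bind Frizzled receptors on nearby cells. With Lrp5 or Lrp6 as co-receptors they stabilise β-catenin, which then acts with TCF/LEF factors on target genes. Other ligands of the family, Wnt5a and Wnt11 among them, are better known for β-catenin-independent signalling that orients cells and drives their movements. In the embryo at this stage Wnt3a and Wnt8a are known from the primitive streak and tail bud, where Wnt3a maintains the progenitors of the trunk, and Wnt1 and Wnt3a from the dorsal edge of the neural tube.

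SAGE reads a short tag that begins at a CATG site near the 3′ end of a transcript, so a ligand's value counts tags and does not grow with transcript length. The sequences below show what the assay can count for 5 of the ligands: the last CATG of the principal transcript in the GENCODE M21 annotation of GRCm38, in capitals, with the bases that complete a tag of 27 bases.
Wnt3a, chr11:59248503-59248529, minus strand: CATGgggacacagtcaagccgcagagc
Wnt5a, chr14:28527262-28527288, plus strand: CATGaagcagatgtaattaaaggttga
Wnt5b, chr6:119432547-119432573, minus strand: CATGtacagcgtccctttgacattaaa
Wnt3, chr11:103817738-103817764, plus strand: CATGagcgcattgtaattatcctcgcc
Wnt1, chr15:98793484-98793510, plus strand: CATGcctccctcagcctcctcccaccc
Each of the 5 lies in the 3′ UTR, within 1 exon. In Wnt8a, whose tag is not printed, the last CATG lies in the coding part, beginning 1144 bases before the transcript end. They are predictions from the annotation, not sequences read from the libraries, and the deposited tables were made on another build. The closely related Wnt3 and Wnt3a have different predicted tags, and 0 of the predicted tags of the 10 ligands was also the last CATG tag of another gene. Wnt5b has the same predicted tag in its 4 coding transcripts, whereas Wnt5a has 2 different tags in 2 coding transcripts and Wnt11 has 3 in 3. In Wnt6 the last CATG begins 24 bases before the annotated end, too close for a full tag. The table of promoters (RefSeq, GRCm38.p6) held 10 windows for 7 of the 10 ligands. The TCF/LEF motif CTTTGAA or CTTTGAT, searched on both strands, was found in a window of Wnt5b and a window of Wnt11, and in 8.65% of all 32851 windows.

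Ligand transcripts were rare in these libraries, and the open neural tube libraries were poor at counting rare transcripts. Total counts ran from 5668054 to 16655583 reads, so that 3 reads stood for 0.180 to 0.529 CPM, the count scaled to a common library total. Reads can be copies of 1 molecule, which these counts cannot tell apart. An effective number of tags was estimated as the sample size at which chance would leave as many genes of mean 5 to 20 CPM at 0 as were seen. The open neural tubes reached 170964 to 343184 such tags and the protrusions 667995 to 960720, or 32.7 to 48.5 and 9.12 to 11.9 reads per tag. A level of 3 effective tags corresponded to 8.74 to 17.5 CPM in the open neural tubes and to 3.12 to 4.49 CPM in the protrusions. This estimate counts a gene that is silent in a group as missed, so it may be too low where groups differ. Of the 10 ligands, only Wnt1 and Wnt5a reached 3 effective tags in any open neural tube library, each in 1 of 4. Wnt3a, Wnt5a, Wnt6 and Wnt8a reached that level in all 3 attached protrusions.

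**Figure D1:**
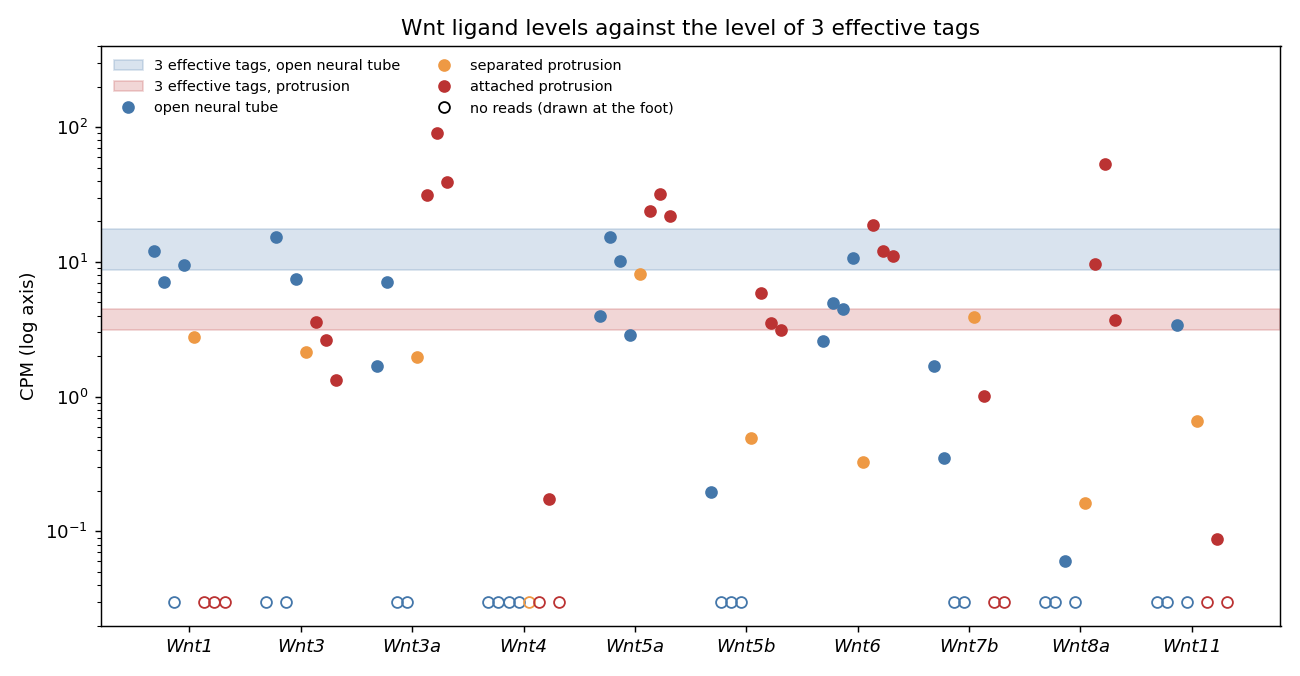
CPM of each Wnt ligand in each library on a log axis; filled points are libraries with reads, open circles at the foot are libraries with none, and the bands span the level of 3 effective tags in the open neural tubes (blue) and in the protrusions (red). Of the open neural tube points, that of Wnt1 in library 9 and that of Wnt5a in library 13 reach the 3-tag level of their own library.

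The summed level of the 10 ligands separated the attached protrusions from the rest. It was 22.0, 50.1, 18.1 and 30.6 CPM in open neural tubes 9, 10, 13 and 14, 20.6 CPM in the separated protrusion, and 94.3, 195 and 80.3 CPM in attached protrusions 2, 3 and 4. The separated protrusion thus lay among the open neural tubes, and the 3 attached ones lay above them all. Most of the gap came from Wnt3a and Wnt8a, which together made up 43.6%, 74.2% and 53.6% of the ligand reads in the 3 attached protrusions. The same pair made up 10.3% in the separated protrusion and 0% to 14.1% in the open neural tubes. Without the pair, the other 8 ligands summed to 46.9 ± 8.49 CPM (SD, n = 3) when attached, and the open neural tubes gave 28.0 ± 11.4 CPM (SD, n = 4), with overlapping ranges. The ligand with the most reads was Wnt3a in every attached protrusion. In open neural tubes 9, 13 and 14 it was Wnt1, Wnt5a and Wnt6 in turn, in open neural tube 10 Wnt3 and Wnt5a tied at 87 reads, and in the separated protrusion it was Wnt5a.

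**Figure D2:**
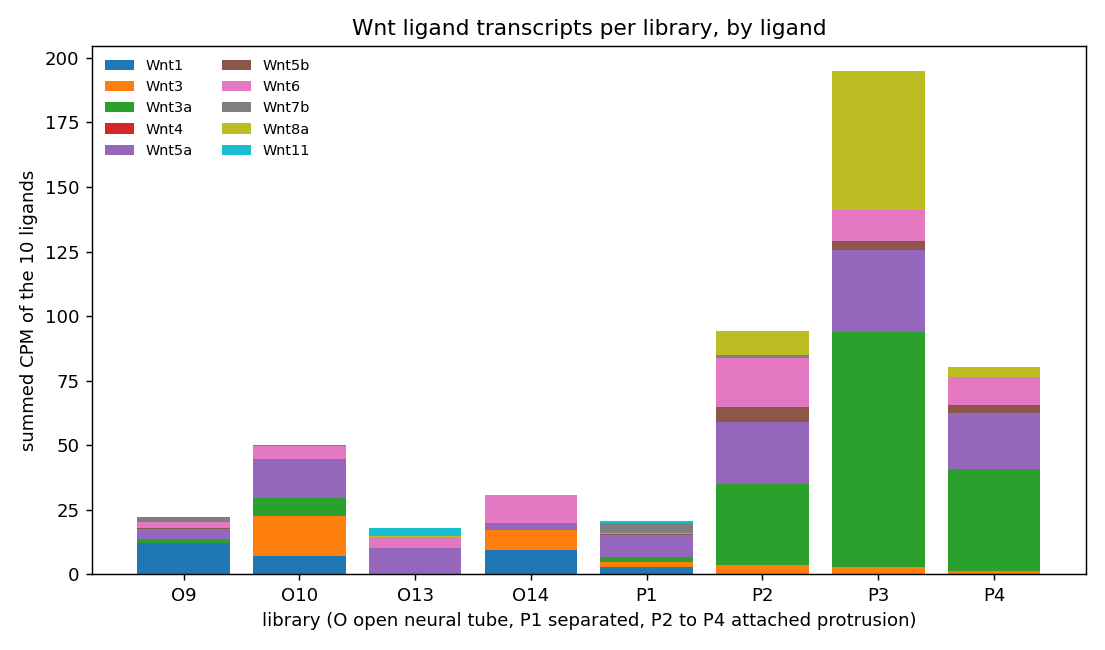
Summed CPM of the 10 Wnt ligands in each library, stacked by ligand (O, open neural tube; P1, separated protrusion; P2 to P4, attached protrusions). Wnt3a (green) and Wnt8a (olive) form 43.6% to 74.2% of the 3 tall bars and little of the others.

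Wnt3a, the ligand that keeps trunk progenitors in the tail bud, had the highest levels of the family in attached protrusions. It stood at 1.68, 7.06, 0 and 0 CPM in open neural tubes 9, 10, 13 and 14, while separated protrusion 1 had 1.96 CPM and attached protrusions 2, 3 and 4 had 31.5, 91.1 and 39.3 CPM. Every attached protrusion lay above every open neural tube, while the separated one lay within their range. The mean was 54.0 ± 32.4 CPM in attached protrusions (SD, n = 3) against 2.18 ± 3.34 CPM in open neural tube (SD, n = 4), 24.7 times higher. Most of the open signal was in library 10, without which the log2 fold change below went from 4.60 to 6.45. At the lowest attached level, 31.5 CPM, the open neural tubes would have held 5.39 to 10.8 effective tags each, so a level of that size was within reach of those libraries. Even so, the test across all genes did not call it. The log2 fold change was 4.60 ± 1.46 (SE; edgeR quasi-likelihood test, Benjamini-Hochberg adjusted p = 0.125) for attached protrusions, and 4.20 ± 1.54 (adjusted p = 0.214) for all 4 protrusions. With limma-voom and sample weights Wnt3a passed in attached protrusions (adjusted p = 0.0345).

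Wnt8a, a ligand of the posterior primitive streak, was the member that rose past the threshold in attached protrusions. It stood at 0, 0, 0.0600 and 0 CPM in the open neural tubes, a single read in library 13, with 0.164 CPM (1 read) in protrusion 1 and 9.61, 53.5 and 3.73 CPM in attached protrusions 2, 3 and 4. Protrusion 3 was far above the next library, and it was also the library with the most Wnt3a. The log2 fold change was 9.16 ± 1.48 (SE; edgeR adjusted p = 0.0328), resting on 710 reads against 1. The ratio of pooled levels was 1085, with an exact 95% counting interval of 194 to 42901 that treats reads as independent molecules and is too narrow here. Leaving out any of the 7 libraries in turn ended the call, with adjusted p-values of 0.0557 without open neural tube 13 to 0.209 without protrusion 3. The log2 fold change in these refits was 7.68 (without protrusion 3) to 10.45 (without open neural tube 13). The level of protrusion 4 would have given only 0.637 to 1.28 effective tags in each open neural tube. Any 1 of these libraries alone could thus have missed such a level of Wnt8a. In attached protrusions Wnt8a passed the low-count filter only through those libraries, so its being tested was set by the group where it was high. With all 4 protrusions Wnt8a did not pass the low-count filter, which asked for about 1.20 CPM in 4 libraries. Without that filter it passed (adjusted p = 0.0464).

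Wnt5a, which guides elongation of the body axis mainly without β-catenin, was 1 of 2 ligands with reads in all 8 libraries. It stood at 3.95, 15.3, 10.1 and 2.87 CPM in open neural tubes 9, 10, 13 and 14, with 8.18 CPM in protrusion 1 and 23.9, 31.8 and 21.8 CPM in attached protrusions 2, 3 and 4. The attached protrusions again lay above every open neural tube and the separated one within their range. The mean level was 3.21 times higher in attached protrusions, 25.8 ± 5.31 CPM (SD, n = 3) against 8.06 ± 5.81 CPM (SD, n = 4). It was not called, with a log2 fold change of 1.59 ± 0.64 (SE; edgeR adjusted p = 0.236) in attached and 1.32 ± 0.65 (adjusted p = 0.367) in all protrusions. Wnt5b, its closest relative, stood at 0.197, 0, 0 and 0 CPM in the open neural tubes, 2 reads in all, with 0.491 CPM in protrusion 1 and 5.88, 3.50 and 3.12 CPM in protrusions 2, 3 and 4. All 4 protrusions lay above all 4 open neural tubes. The attached mean would have given at most 1.43 effective tags in any 1 open neural tube library taken alone. The log2 fold change in attached protrusions was 5.94 ± 1.74 (SE; edgeR adjusted p = 0.0993). DESeq2 (adjusted p = 0.0237) and limma-voom with sample weights (adjusted p = 0.0197) called Wnt5b.

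The other ligands of this class were nearly absent from the counts. Wnt4, known from kidney and gonad development, had 2 reads in protrusion 3 and 0 in the other 7 libraries. Wnt11, which acts in gastrulation movements and in the heart, had 57 reads (3.42 CPM) in open neural tube 13, 4 reads in the separated protrusion and 1 read in protrusion 3. At 48.5 reads per effective tag, the 57 reads of open neural tube 13 amounted to 1.17 tags. Neither gene could be tested with the low-count filter.

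Wnt6, a ligand of the surface ectoderm, was the other ligand with reads in all libraries. It stood at 2.57, 4.94, 4.50 and 10.7 CPM in the open neural tubes, with 0.327 CPM in protrusion 1 and 18.8, 12.1 and 11.1 CPM in attached protrusions 2, 3 and 4. The attached protrusions lay above the open neural tubes, narrowly so for protrusion 4, and the separated one lay below all of them. The log2 fold change was 1.21 ± 0.77 (SE; edgeR adjusted p = 0.502) in attached and 0.81 ± 1.00 (adjusted p = 0.780) in all protrusions. The annotated coding transcript of Wnt6 has no full tag at its last CATG, so the site its reads came from is not known. The summed level of surface ectoderm markers was 52.9 to 324 CPM in open neural tube and 141 to 1035 CPM in protrusions. Of 8 listed markers 6 were matched, and all 6 were read in both groups. The highest sum was mostly Cdh1, at 871 CPM in protrusion 3. Mean levels of Cdh1, Krt8 and Epcam were higher in attached protrusions than in open neural tube, and those of Krt18, Grhl2 and Grhl3 lower. Markers other than Cdh1 were named after their values were seen. The part of surface ectoderm in the Wnt6 values was not tested.

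Wnt3, which is needed to form the primitive streak, did not share the pattern of Wnt3a. It stood at 0, 15.3, 0 and 7.40 CPM in open neural tubes 9, 10, 13 and 14, with 2.13 CPM in protrusion 1 and 3.58, 2.62 and 1.32 CPM in protrusions 2, 3 and 4. The groups overlapped, and the open neural tubes held both the highest levels and the zeros. The highest, 87 reads in open neural tube 10, amounted to 2.62 effective tags. The log2 fold change in attached protrusions was −1.21 ± 2.04 (SE; edgeR adjusted p = 0.858), and −0.06 without open neural tube 10. With limma-voom and sample weights its sign turned (2.30, adjusted p = 0.380). Wnt7b, a ligand of ectoderm and later of the nervous system, stood at 1.68, 0.353, 0 and 0 CPM in the open neural tubes, with 3.93 CPM in protrusion 1 and 1.00, 0 and 0 CPM in protrusions 2, 3 and 4. The separated protrusion was the highest library for Wnt7b, and it was not tested with the low-count filter.

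Wnt1, the ligand of the midbrain and dorsal neural tube, ran the other way. It stood at 11.9, 7.06, 0 and 9.55 CPM in open neural tubes 9, 10, 13 and 14, at 2.78 CPM in the separated protrusion, and had 0 reads in attached protrusions 2, 3 and 4. The zero of open neural tube 13 made the groups overlap. At the open neural tube mean of 7.14 CPM each attached protrusion would have held 5.05 to 6.86 effective tags. That mean itself rests on few tags, as the reads of open neural tubes 9, 10 and 14 amounted to 3.70, 1.21 and 1.81 effective tags. The edgeR test did not call Wnt1 (adjusted p = 0.148 in attached and 0.499 in all protrusions), whereas DESeq2 called it in attached protrusions (adjusted p = 0.00377). The 8 dorsal neural tube markers summed to 232 to 776 CPM in open neural tube and 187 to 573 CPM in protrusions, a sum led by Msx1. The members did not move together. Mean levels of Msx1 (341 against 204 CPM) and Zic2 (46.7 against 26.2 CPM) were higher in attached protrusions than in open neural tube. Those of Zic1, Pax3, Pax7, Msx2 and Lmx1a were lower, as Wnt1 was, and Gdf7 had no read. Zic1, a transcription factor of the dorsal neural tube, stood at 352, 105, 4.74 and 112 CPM in open neural tubes 9, 10, 13 and 14, with 51.0 CPM in protrusion 1 and 0.430, 1.05 and 0.721 CPM in protrusions 2, 3 and 4. It fell in attached protrusions (log2 −7.66 ± 1.40, edgeR adjusted p = 0.0390). Pax3, a factor of the same region, stood at 7.75 to 112 CPM in open neural tube, 64.8 CPM in protrusion 1 and 1.75 to 6.97 CPM when attached, without passing (adjusted p = 0.0751). The dorsal markers other than Msx1 were named after their values were seen, and the part of dorsal neural tube in the Wnt1 values was not tested.

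**Figure D3:**
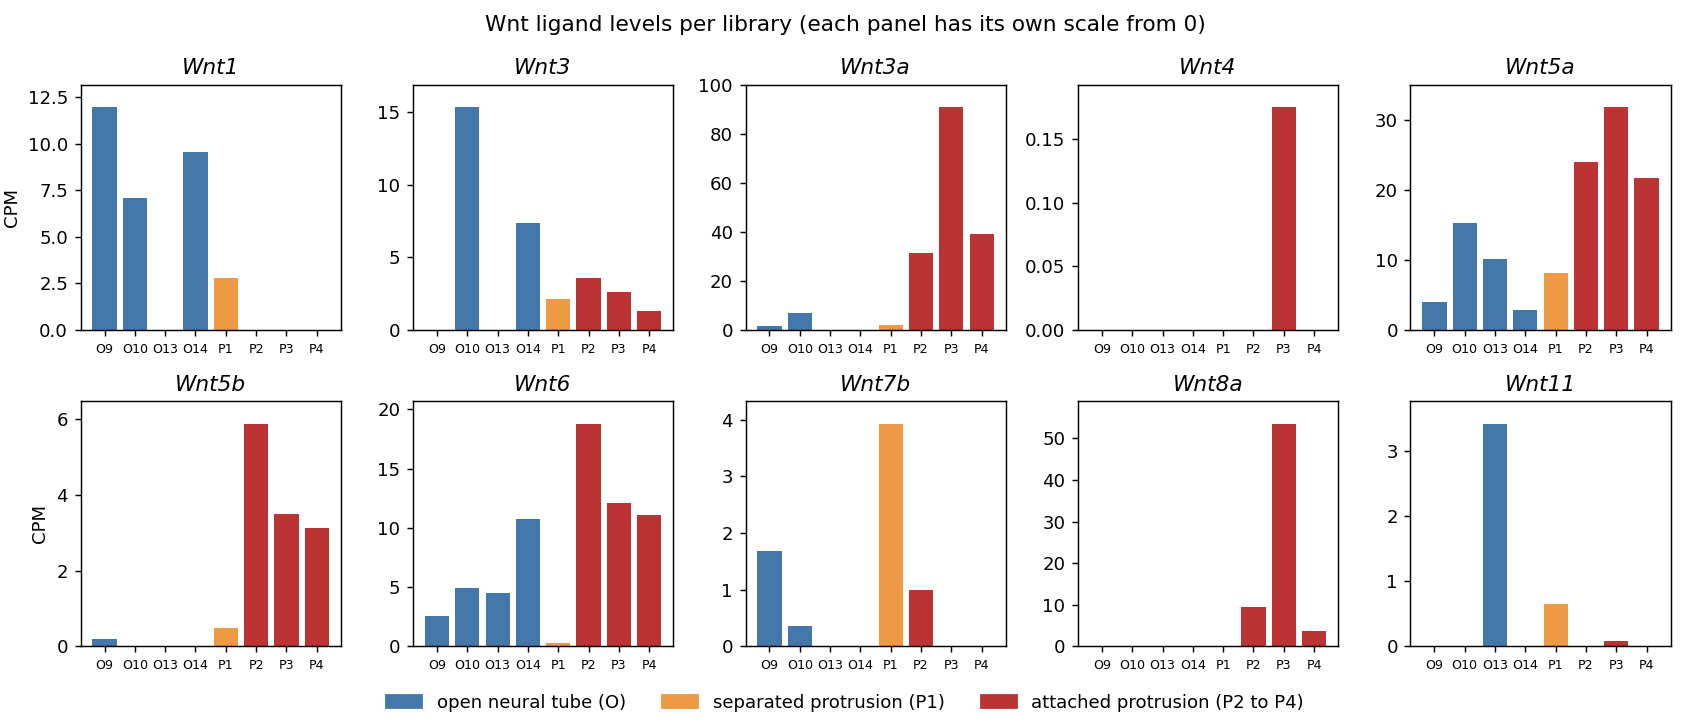
CPM of each Wnt ligand in each library, bars from 0, each panel on its own scale (O, open neural tube; P1, separated protrusion; P2 to P4, attached protrusions). Wnt3a, Wnt5a, Wnt5b, Wnt6 and Wnt8a are highest in the 3 attached protrusions, and Wnt1 is present in 3 open neural tubes and the separated protrusion.

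Counted over the list, 0 of 10 ligands passed an adjusted p of 0.05 in the comparison of all 4 protrusions with open neural tube, in which 5 could be tested and 0.607% of the 11036 genes tested were called by edgeR. At an unadjusted p of 0.05, 1 passed (Wnt3a), as did 15.3% of all genes tested, and DESeq2 and limma-voom with sample weights called 0. For attached protrusions 7 ligands could be tested and 1, Wnt8a, was called, where 0.759% of 11466 genes were called higher and 1.5% in either direction. At an unadjusted p of 0.05, 5 of the 7 passed there, 4 higher and 1 lower, as did 17.7% of all genes tested. The filter asked for about 1.19 CPM in 3 libraries here. Wnt5b and Wnt8a passed it only through attached protrusions, and Wnt1 only through open neural tubes. Wnt3a and Wnt3 had reads in 2 open neural tubes, too few to pass without the protrusions. The number tested, the 5 that passed and the median are thus partly set by the groups. The median log2 fold change of the 7 was 1.59, against 0.09 over all genes tested. In 5 of the 10, Wnt3a, Wnt5a, Wnt5b, Wnt6 and Wnt8a, all attached protrusions lay above all open neural tubes. These 5 were among the 7 tested, and the same was so in 17.9% of all genes tested. With the separated protrusion included, Wnt5b and Wnt8a still lay above all open neural tubes, but neither passed the filter there. Of the 5 ligands tested in that comparison 0 were separated in that direction, against 8.84% of the genes tested. The separated protrusion is a single library, so its difference from the attached ones was not tested. The 2 comparisons share their open neural tube libraries.

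**Figure D4:**
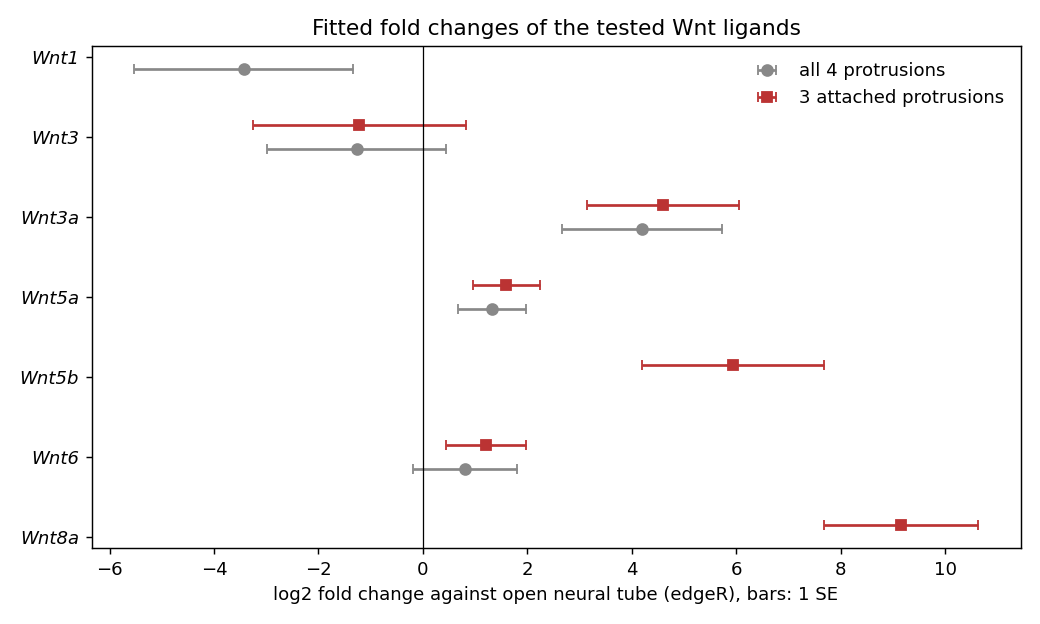
Log2 fold changes against open neural tube from edgeR for the ligands tested, with bars of 1 SE, for all 4 protrusions (grey circles) and the 3 attached ones (red squares). Wnt8a at 9.16 is the one point past the threshold; Wnt1 in attached protrusions, at 0 reads, is left out.

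In attached protrusions the order of mean levels ran from Wnt3a (54.0 CPM) through Wnt5a (25.8 CPM), Wnt8a (22.3 CPM), Wnt6 (13.97 CPM), Wnt5b (4.17 CPM) and Wnt3 (2.51 CPM) to the remaining 4 below 1 CPM. The ranges of neighbours in this order overlapped across libraries, except that Wnt6 lay above Wnt5b and Wnt3 above the remaining 4. Compared within each library, Wnt3a lay above Wnt5a and Wnt5b above Wnt3 in every attached protrusion, while Wnt8a changed place with Wnt5a and Wnt6. In open neural tube the order was Wnt5a (8.06 CPM), Wnt1 (7.14 CPM), Wnt6 (5.69 CPM), Wnt3 (5.69 CPM) and Wnt3a (2.18 CPM), with all of these ranges overlapping. There 1 effective tag was worth 2.91 to 5.85 CPM.

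Among the other genes of the pathway, target and feedback genes had the most calls. The lists were chosen with earlier results of these data known. Of 17 Wnt/β-catenin target and feedback genes, 15 could be tested with all protrusions, and 3 rose and 0 fell, against 0.281% of all genes called higher. These were Cdx2, Cdx1 and Tbx6, transcription factors of the posterior body and presomitic mesoderm. Cdx2 stood at 0.597 to 4.32 CPM in the open neural tubes, with 105 CPM in protrusion 1 and 207 to 320 CPM when attached (log2 6.56 ± 0.64, edgeR adjusted p = 0.00582). In attached protrusions 17 could be tested and 6 rose, with T, Nkd1 and Ccnd1 added, against 0.759% of all genes called higher, and the median log2 fold change was 3.44. In both comparisons Cdx2 and Tbx6 had too few open libraries at the level of the low-count filter to pass it without the protrusions. The same held for T in attached protrusions. These counts and the median are thus partly set by the groups. Leaving out 1 library gave 0 to 6 calls with all protrusions, 0 without open neural tube 9, and 2 to 5 with attached ones, 5 without open neural tube 10 or 13 and 2 without any other. Nkd1, a feedback inhibitor that binds Dishevelled, stood at 29.1 to 50.4 CPM in the open neural tubes, 62.2 CPM in protrusion 1 and 119 to 139 CPM when attached (log2 1.49 ± 0.25, edgeR adjusted p = 0.0338). With 1 library left out, Nkd1 passed only where that library was open neural tube 13. Axin2, the β-catenin feedback gene most used as a readout, stood at 62.8 to 164 CPM in the open libraries, with 191 CPM in protrusion 1 and 178 to 363 CPM when attached, without passing (log2 1.41 ± 0.38, adjusted p = 0.0816). Nkd1 and Axin2, and below Fzd10, Ptk7 and Sfrp5, were named after their values were seen. Targets of this kind are also markers of the tail bud. The summed level of the 8 primitive streak and tail bud markers was 1.28 to 18.9 CPM in open neural tube, 144 CPM in the separated and 626 to 1013 CPM in the attached protrusions. Of these, Cdx4, Mixl1, Evx1, Nkx1-2 and Eomes had no read in any open library. Each open library had 69.1% to 81.6% of all genes of mean under 5 CPM at 0. There 1 effective tag was worth 2.91 to 5.85 CPM. The attached means of Evx1 (0.290 CPM), Eomes (0.497 CPM) and Nkx1-2 (2.72 CPM) lay below that, so any 1 open library alone could have missed such levels. The part of streak and tail bud tissue in the levels of Wnt3a, Wnt8a and the targets was not tested. In bulk tissue, more cells of a type and more RNA per cell cannot be told apart.

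Genes that make or receive the signal moved in both directions. Of 16 receptors and co-receptors, 14 were tested, and 1, Fzd7, fell while 0 rose with all protrusions, against 0.326% of all genes called lower. Fzd7 stood at 735 to 1371 CPM in the open libraries, 418 CPM in protrusion 1 and 208 to 223 CPM when attached. It fell by 2.34 ± 0.26 on the log2 scale in attached protrusions (SE; edgeR adjusted p = 0.00976). There Fzd10, another Frizzled receptor, rose by 1.87 ± 0.33 (adjusted p = 0.0370) and Ptk7, a pseudokinase co-receptor of planar polarity, by 2.80 ± 0.45 (adjusted p = 0.0309); Ptk7 in protrusion 1 lay within the open range. With 1 library left out, 0 to 3 receptors passed with all protrusions, 0 in 6 of 8 cases, and 0 to 4 with attached ones, 0 without open neural tube 9 or protrusion 4. Of 13 secreted inhibitors 7 were tested and 0 passed with all protrusions (1 at an unadjusted p of 0.05, 1 with DESeq2, 0 with limma-voom), where the smallest p-values were those of Sfrp1 (−2.51 ± 0.60, adjusted p = 0.0812) and Sfrp2 (−0.90 ± 0.45, adjusted p = 0.385). In attached protrusions 2 fell, where 0.741% of all genes were called lower, the Wnt-binding proteins Sfrp1 and Sfrp5. Sfrp5 stood at 24.3 to 270 CPM in the open libraries, with 174 CPM in protrusion 1 and 1.58 to 3.97 CPM when attached (log2 −5.53 ± 0.81, edgeR adjusted p = 0.0223). Leaving out open neural tube 9 or 14 or any attached protrusion left 0 inhibitors called, and leaving out open neural tube 10 left 1. Porcn, the acyltransferase that attaches the lipid to Wnt proteins, stood at 19.03 to 111 CPM in open neural tubes and 9.49 to 18.0 CPM in protrusions, all below the open values, without passing (log2 −2.32 ± 0.49, edgeR adjusted p = 0.0681). Notum, which removes that lipid, was at 13.1 CPM in open neural tube 10, at 0 in the other 3, and at 16.5 to 40.6 CPM in protrusions (edgeR adjusted p = 0.396). Of these 2 and Wls, which carries Wnt proteins to the cell surface, 0 passed with edgeR, 1 at an unadjusted p of 0.05, 1 with DESeq2 (Porcn) and 2 with limma-voom (Porcn and Notum). Without open neural tube 13 Porcn passed (adjusted p = 0.0375), and without open neural tube 10 Notum did (adjusted p = 0.0208).

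No member passed in the lists of the R-spondin axis, of the β-catenin relay or of planar cell polarity, in either edgeR comparison. At an unadjusted p of 0.05, 1 of 4, 3 of 16 and 2 of 12 tested members passed with all protrusions, where 15.3% of all genes did. DESeq2 called 0, 1 and 2 of them, and limma-voom with sample weights 0, 0 and 2. At the same unadjusted edgeR threshold in attached protrusions, 1 of 4 R-spondin axis members and 3 of 13 polarity genes passed, all higher. Of 16 relay genes 3 passed higher and 2 lower there, where 17.7% of all genes passed. Rspo3, a secreted amplifier of Wnt signals, stood at 0, 0.706, 15.6 and 0 CPM in open neural tubes 9, 10, 13 and 14, at 27.6 CPM in the separated and at 265, 194 and 197 CPM in the attached protrusions, with no overlap of the groups (log2 5.18 ± 1.46 with all protrusions, edgeR adjusted p = 0.106). Lgr5, an R-spondin receptor, differed by −0.92 ± 0.70 on the log2 scale with all protrusions (edgeR adjusted p = 0.614). Lef1, the β-catenin partner that is itself induced by Wnt signals, stood at 0 to 3.90 CPM in the open libraries, with 0.491 CPM in protrusion 1 and 45.6 to 76.7 CPM when attached. Its log2 fold change was 4.58 ± 1.40 with all protrusions (edgeR adjusted p = 0.138) and 4.99 ± 1.11 in attached ones (adjusted p = 0.0630). Pygo2, which links β-catenin to chromatin, differed by 0.54 ± 0.20 with all protrusions (edgeR adjusted p = 0.225). Prickle1, a core planar polarity protein, stood at 10.4 to 57.0 CPM in open neural tubes and 99.2 to 211 CPM in protrusions, the separated one at 162 CPM (log2 2.59 ± 0.52 with all protrusions, edgeR adjusted p = 0.0575). For Prickle3 no open library held a read, and protrusions stood at 1.58 to 4.81 CPM (edgeR adjusted p = 0.0824 with all protrusions).

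**Figure D5:**
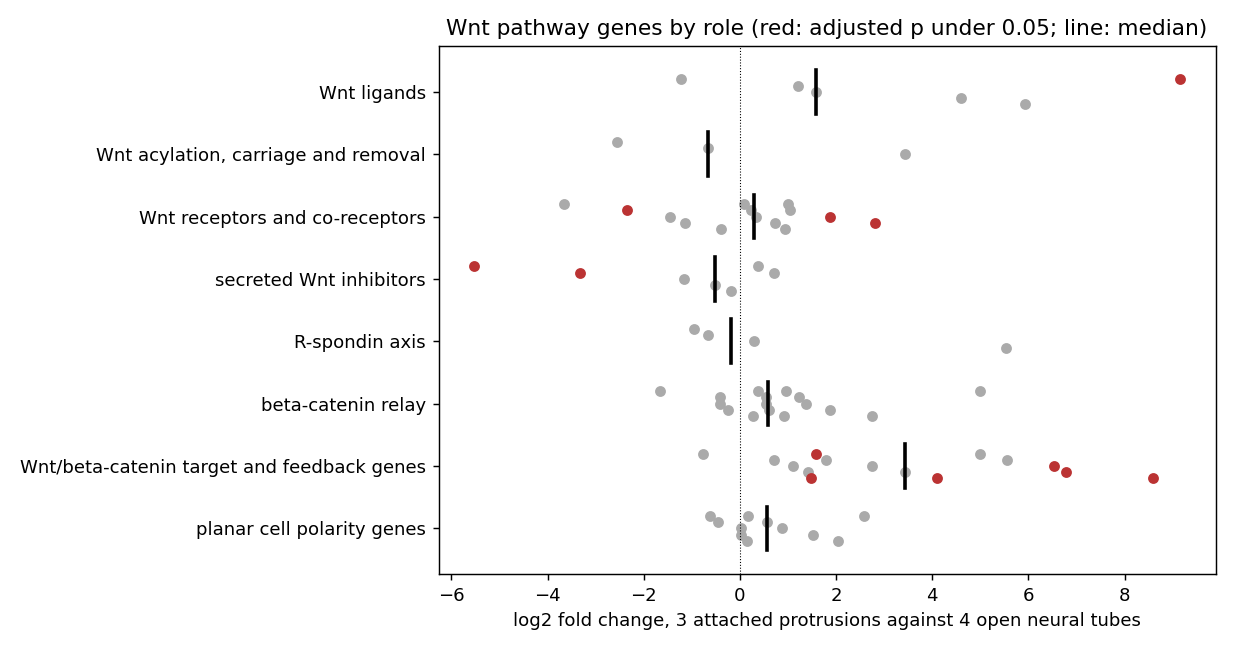
Log2 fold changes of Wnt pathway genes in 3 attached protrusions against 4 open neural tubes, by role; each point is a tested gene, red where the edgeR adjusted p was under 0.05, and black lines are list medians. Genes at 0 reads in a whole group are not drawn. Target and feedback genes have the highest median, 3.44, which includes members that passed the low-count filter only through attached protrusions.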

How the data were processed

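SAGE libraries were made from 7 to 12 ng of total RNA with a SOLiD SAGE kit, per the labels' protocols. The authors deposited whole-number read counts per gene symbol, not normalized. Build mm9 is named in the submitters' processing notes. The mapping program, strand use and rule for tags matching several genes are not stated there or in the labels. The members and gene lists were chosen with earlier results of these data known. Groups follow the source names and the morphology labels; open neural tube numbers come from titles and protrusion numbers from listing order.

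CPM are counts over library totals. Tests ran on all genes in R 4.3.3 with edgeR 4.0.16 (filterByExpr, minimum count 10; TMM factors; robust quasi-likelihood F test, 2-sided; Benjamini-Hochberg, threshold 0.05), and SE came from the F statistic. The coefficient of biological variation was 0.746, or 0.799 for attached protrusions. Alternatives were other scaling, filters of none or 20 CPM, DESeq2 1.42.0, limma 3.58.1 voom with sample weights, and each library left out. Scripts were tested on simulated data. Lists got counts and medians and no set test. All 10 ligands are named; other pathway genes follow a rule (members past the threshold with all protrusions, up to 4, else the 2 of smallest p), and of each marker list the most abundant is named; exceptions are stated. P-values measure the spread between libraries, which may be partly technical.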

Additional observations from a re-analysis of the deposited data

Results flagged for a closer look

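Within groups of 4 libraries, a library was picked out where its gap to the nearest other exceeded Dixon's 95% critical value; 21 groups of values were examined and 6 were picked out, where chance flags about 1 in 20. Most have so few reads elsewhere that any reads stand apart. In open neural tube these were Wnt11 in library 13 (3.42 CPM, the others at 0), Wnt5b in library 9 (0.197 CPM, the others at 0) and Wnt8a in library 13 (0.0600 CPM, a single read). Among protrusions they were Wnt1 in the separated protrusion 1 (2.78 CPM, the attached ones at 0), Wnt11 in the same library (0.654 CPM) and Wnt4 in protrusion 3 (0.175 CPM, 2 reads).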

How the results depend on the processing

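Counts of called genes moved widely. For all protrusions, 67 became 157 with the 20 CPM filter, 795 with DESeq2, 222 with limma-voom and sample weights, and 1 to 172 with 1 library left out (1 without open neural tube 9, 172 without protrusion 1). Leaving out protrusion 1 and open neural tube 13 together, chosen after seeing the data, gave 211. For attached protrusions, 172 became 425 with the 20 CPM filter, 1111 with DESeq2, 1102 with limma-voom and 10 to 211 with 1 library left out; without scaling factors the share of higher calls went from 50.6% to 60.7%, and the median of all genes shifted by 0.10. The ligands called with all protrusions went from 0 to 1 (Wnt8a) without the low-count filter and from 0 to 1 with 1 library left out. In attached protrusions 1 became 3 with DESeq2 (Wnt1, Wnt5b, Wnt8a), 3 with limma-voom (Wnt3a, Wnt5b, Wnt8a), 0 with the 20 CPM filter, which Wnt8a does not pass, and 0 to 0 with 1 library left out. The sign of Wnt3 turned with limma-voom, to 2.44 in all and 2.30 in attached protrusions; the cause was not tested. No paired analysis was possible because the numbers of the 2 groups do not match, those of the protrusions being listing order only.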

Other observations

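Outside the 10 ligands, the count tables hold 9 further Wnt ligands, and several of these had reads in protrusions alone. Wnt10a had no read in any open library, 0.654 CPM in protrusion 1 and 8.89, 2.27 and 2.64 CPM in protrusions 2, 3 and 4. Wnt8b had reads in the attached protrusions alone, at 0.361 to 1.92 CPM. Wnt2b, Wnt9a and Wnt16 were also at 0 in every open neural tube, and Wnt10b in all 8 libraries. Wnt2 had 161 reads in open neural tube 13, or 9.67 CPM, the library that also held the Wnt11 reads, and Wnt9b had 42 reads in open neural tube 9. Counted over all 19 symbols, 12 to 16 had reads in each protrusion and 4 to 8 in each open neural tube. The number of all genes with a read, at 5668054 reads per library, ranged from 9920 to 11246 for the open libraries and from 14379 to 15501 for the protrusions. The part of that gap in the count of ligands was not tested.

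Markers of tissues other than the neural plate varied between libraries as well. Endothelial markers summed to 6.42 to 163 CPM in open neural tube, highest in library 13, against 34.5 CPM in the separated and 0.574 to 2.88 CPM in the attached protrusions; Kdr and Flt1 had 0 reads in open neural tube. Erythroid markers summed to 1.06 to 1009 CPM in open neural tube and 0.430 to 45.9 CPM in protrusions, with Hbb-y at 0 in all libraries. Paraxial mesoderm markers summed to 30.1 to 206 CPM when open and to 352 to 849 CPM for protrusions. Definitive endoderm markers summed to 2.96 to 34.9 CPM against 8.18 to 94.8 CPM, notochord markers to 4.26 to 24.3 CPM against 5.56 to 42.2 CPM, and ventral neural tube markers to 7.69 to 26.6 CPM against 1.80 to 40.6 CPM. The most abundant markers of these lists, and of the streak, dorsal and surface ectoderm lists, were Tek, Hba-x, Meox1, Trh, Chrd, Foxa2, T, Msx1 and Cdh1.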
